A study of Mus musculus with 16 samples.

Results

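The glutathione, glucuronide and sulfate transferases are the conjugating enzymes of drug metabolism, and their genes were picked from the gene count table by symbol: *Gst* followed by a class letter, *Mgst*, *Ugt* and *Sult*. Of 55487 genes in the table, 67 carried such a symbol, namely 22 *Gst*, 3 *Mgst*, 9 *Ugt1a*, 12 other *Ugt* and 21 *Sult* genes. Their mRNA abundance was measured by RNA-seq in urogenital sinus (UGS) epithelium, the fetal lining from which prostate buds grow, of male C57BL/6J mouse fetuses on E16.75. In the TCDD group the dam had received a single oral dose of the dioxin TCDD (5 µg/kg in the sample labels and methods, 1 µg/kg in the series text) on E13.5, and in the vehicle group corn oil (5 ml/kg) on the same day. The results text of the study places the dose on a later embryonic day. Bladder and distal urethra had been cut away and the mesenchyme removed by enzymes and dissection. Each group held 4 pools of 5 or 6 epithelia each, which makes the pool, not the fetus, the replicate here, and nothing in the labels ties a pool to a litter. The study removed TCDD pool 1 as an outlier. Tests here therefore compare TCDD pools 2 to 4 with vehicle pools 1 to 4, and for each transferase gene that passed the test the level in TCDD pool 1 and the test over all 8 pools are given as well.

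Glutathione transferases (GSTs) join the tripeptide glutathione to electrophiles, in the cytosol (the *Gst* genes, apart from *Gstk1*, whose enzyme is mitochondrial) or in membranes (the *Mgst* genes). UDP-glucuronosyltransferases (UGTs) attach glucuronic acid from UDP-glucuronate, and sulfotransferases (SULTs) attach sulfate from the donor PAPS. Conjugates then leave the cell through ABC transporters. TCDD binds the aryl hydrocarbon receptor (AHR), whose complex recognises DNA with the core GCGTG, and several genes of these families are textbook targets of AHR or of the antioxidant factor NRF2 in liver.

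Each pool yielded between 22254896 and 28146766 counts from its 2 lanes. Chi-square per gene was 0.990 to 1.04 between lanes, close to sampling noise alone, and 10.1 to 54.1 between pools of a group. *Cyp1b1*, a cytochrome P450 gene and textbook target of AHR, stood at 321 to 352 CPM (counts scaled to library size, with trimmed mean of M values factors) in TCDD pools and 7.48 to 12.1 CPM in vehicle pools. Summed epithelium markers stood at 9464 to 10631 CPM in TCDD pools 2 to 4, 10390 in TCDD pool 1 and 8562 to 8919 in vehicle pools, with none of the 10 markers at 0. Of these markers 4 were higher (*Krt8*, *Krt18*, *Krt19* and *Cldn4*), 1 was lower (*Shh*) and 5 did not pass, with the same 4 and 1 called over 8 pools. Urothelium markers (6 of 6 higher, 6 over 8 pools) summed to 3362 to 4150 CPM in TCDD pools 2 to 4, 2112 in TCDD pool 1 and 1409 to 1795 in vehicle pools. Mesenchyme markers (6 of 8 tested lower, 2 over 8 pools, 11 listed, none at 0) summed to 143 to 162 CPM in TCDD pools 2 to 4, 255 in TCDD pool 1 and 227 to 280 in vehicle pools. Smooth muscle, endothelium, neuron and red cell markers each summed to at most 18.3 CPM in any pool, with 1 smooth muscle gene (*Acta2*) and 1 neuron gene (*Th*) lower, and 0 of either list lower over 8 pools. Their sums in TCDD pool 1 were 5.93, 5.05, 13.7 and 3.68 CPM. In TCDD pools 2 to 4 they were lower, at 1.11 to 1.78, 0.341 to 0.980, 8.41 to 8.51 and 1.11 to 3.22 CPM. Vehicle pools stood at 2.87 to 5.97, 0.769 to 1.53, 11.1 to 12.3 and 0.489 to 18.3 CPM. Leukocyte markers (3 of 8 higher, 1 over 8 pools) summed to 26.7 to 41.6 CPM in TCDD pools 2 to 4, 20.3 in TCDD pool 1 and 15.3 to 28.9 in vehicle pools. The part of these shifts in the results below was not tested, and in bulk RNA fewer cells of a type and less RNA per cell cannot be told apart.

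In TCDD-exposed epithelium 13 genes of glutathione conjugation and glucuronidation rose and 2 glutathione transferase genes fell. Of the sulfotransferase genes only 2 could be tested, and 0 passed. Of the 67 genes, 22 had no count in any pool (2 *Ugt1a*, 8 other *Ugt* and 12 *Sult* genes), 18 had counts but too few to test (at most 1.40 CPM in any pool), and 27 could be tested. Those that rose were *Ugt1a7c*, *Mgst2*, *Ugt1a1*, *Ugt1a6a*, *Ugt2b34*, *Gstm1*, *Gstm6*, *Gstm4*, *Ugt1a6b*, *Gsta4*, *Mgst3*, *Gsta2* and *Mgst1*, in order of fold change, the genes that fell were *Gstt1* and *Gstm5*, and the other 12 did not pass. Calls are from the quasi-likelihood F-test of edgeR at an FDR-adjusted P (Benjamini-Hochberg, over all 14233 tested genes) no higher than 0.05, and 11.9% of those genes were called higher and 11.2% lower. The median log2 fold change was 0.62 over the 27 genes and −0.0024 over all tested genes. *Gstm6*, *Mgst2* and *Ugt2b34* reached the filter on low counts through the TCDD pools alone, so that only a gene high with TCDD could enter in this way. They are counted among the 13 and in the median, and no median without them is given here. The other 24 tested genes had at least 3 vehicle pools over the filter level. By TREAT, edgeR's test against a 1.5-fold change, 9 of the genes rose (2.59% of all tested genes) and 1, *Gstt1*, fell (1.44%). Among these 9 were *Gstm6*, *Mgst2* and *Ugt2b34*, which entered through the TCDD pools alone. For all 13 genes that rose, TCDD pools 2 to 4 lay above every vehicle pool, and for both genes that fell they lay below. The genes were picked by the test on these same 7 pools, so the separation adds no support to the calls. TCDD pool 1 was above every vehicle pool for 9 of the 13 and within their range for *Gsta2*, *Mgst2*, *Ugt2b34* and *Ugt1a6a*. Shares of all tested genes with such positions of the pools are not given here. Over all 8 pools, 11 of the 13 remained higher (7.41% of all tested genes were called higher), and 0 were called lower by edgeR (6% of all), where 3 had an unadjusted p under 0.05. By TREAT over 8 pools, 2 rose (0.925% of all) and 0 fell (0.448%).

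**Figure D1:**
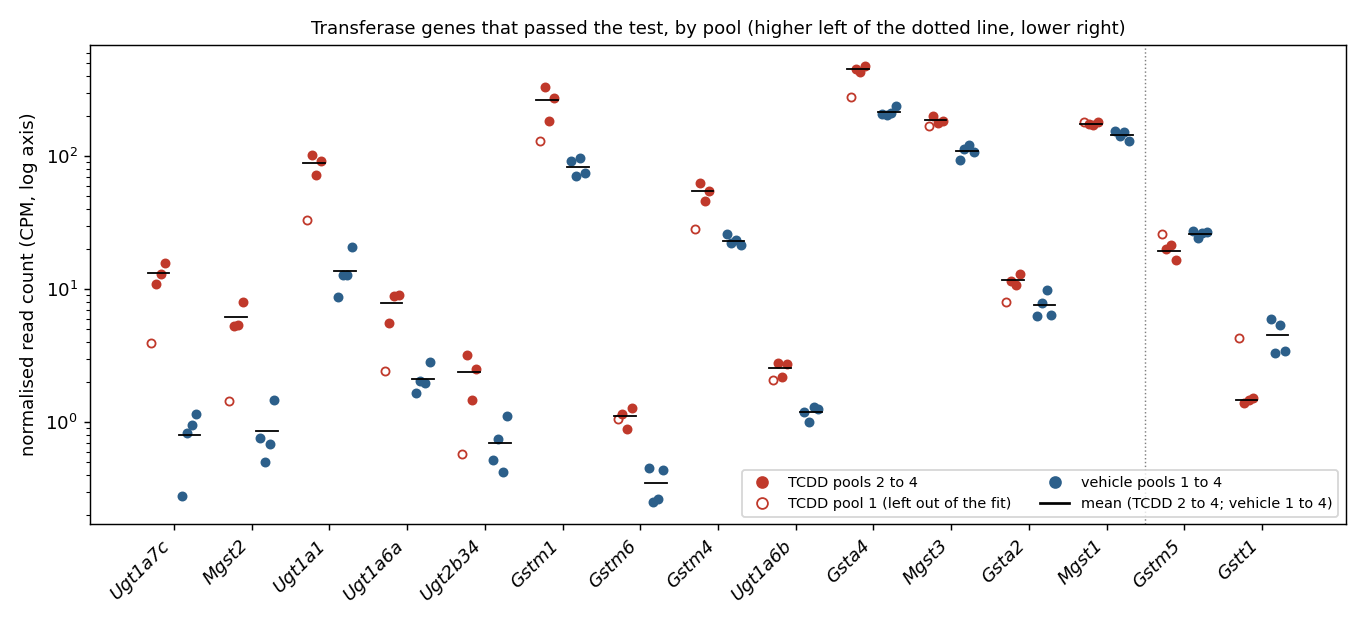
Normalised read count (CPM, log axis) of the 15 transferase genes that passed the test, a point per pool, TCDD left of vehicle for each gene, with lines at the means. TCDD pools 2 to 4 lie above all vehicle pools for the 13 genes left of the dotted line and below them for *Gstm5* and *Gstt1*, and the open point, TCDD pool 1, lies nearer to the vehicle pools for genes such as *Ugt1a1*, *Mgst2* and *Gstt1*.

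Together the 67 genes took a larger share of the library after TCDD. They held 0.202% to 0.211% of all counts in TCDD pools 2 to 4 and 0.159% in TCDD pool 1, against 0.125% to 0.137% in vehicle pools. The *Gst* genes made up most of this, with summed levels of 1654, 1520 and 1613 CPM in TCDD pools 2, 3 and 4 and 1203 CPM in TCDD pool 1, against 939, 1041, 1019 and 1045 CPM in vehicle pools 1 to 4. The *Mgst* genes summed to 356 to 381 CPM in TCDD pools 2 to 4, 352 in TCDD pool 1 and 240.3 to 275 in vehicle pools. The *Sult* genes summed to 24.3 to 30.3 CPM in TCDD pools 2 to 4, 31.3 in TCDD pool 1 and 28.1 to 31.7 in vehicle pools, ranges that overlap.

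All 4 glucuronosyltransferase genes of the *Ugt1a* locus that could be tested rose, with the largest fold change of the 27 genes in *Ugt1a7c*. This locus on mouse chromosome 1 holds a row of first exons, each with its own promoter and each encoding the part of the enzyme that recognises the substrate, which are spliced to a common set of last exons that bind UDP-glucuronate. The 9 genes meet the same shared exon, which starts at position 88215044 of chromosome 1 (GRCm38, plus strand). The junctions of the 4 genes that could be tested are printed to show that the sequence after the join does not tell the genes apart. Each line gives 24 bases of the gene's first exon in lower case and the first 24 bases of the shared exon in capitals.
Ugt1a7c: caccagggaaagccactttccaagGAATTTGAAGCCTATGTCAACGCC
Ugt1a6b: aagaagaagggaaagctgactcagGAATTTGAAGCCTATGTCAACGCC
Ugt1a6a: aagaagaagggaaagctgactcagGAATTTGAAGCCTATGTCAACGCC
Ugt1a1: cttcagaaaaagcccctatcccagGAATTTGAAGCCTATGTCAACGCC
The 24 bases before the join are the same in *Ugt1a6a* and *Ugt1a6b*, and the 1311 bases from the join on were identical between all pairs of the 9 genes. Read pairs that lie in the shared exons alone cannot be assigned and were dropped by the counting, so the value of a gene rests on pairs that touch bases annotated to it alone.

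Of the 9 *Ugt1a* genes, 7 had any count and 4 could be tested. *Ugt1a1* (ENSMUSG00000089960, chromosome 1, 88211959 to 88218997), whose enzyme is the only one known to conjugate bilirubin in the body, had the highest level of the locus. It stood at 103, 72.4 and 92.3 CPM in TCDD pools 2, 3 and 4 and 33.1 CPM in TCDD pool 1, against 8.77, 12.9, 12.7 and 20.9 CPM in vehicle pools 1 to 4. All 4 TCDD pools lay above the vehicle pools, with pool 1 between the other TCDD pools and the highest vehicle pool. It rose by 2.69 ± 0.264 (SE) on the log2 scale (FDR-adjusted P = 4.06e-04), and by 2.45 over 8 pools (FDR-adjusted P = 0.00666).

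*Ugt1a7c*, whose enzyme family conjugates phenols and polycyclic compounds, was nearly silent with vehicle. It was at 10.9, 13.1 and 15.9 CPM in TCDD pools 2, 3 and 4 and 3.99 CPM in TCDD pool 1, against 0.280, 0.828, 0.956 and 1.16 CPM in vehicle pools 1 to 4. Its log2 fold change was 4.04 ± 0.307 (SE, FDR-adjusted P = 3.72e-07) and 3.76 over 8 pools (FDR-adjusted P = 0.00133), and the groups did not overlap with or without pool 1. *Ugt1a6a*, the phenol-conjugating form long known as a target of AHR in liver, was at 5.63, 8.87 and 9.13 CPM in TCDD pools 2, 3 and 4 and 2.44 CPM in TCDD pool 1, against 1.68, 2.05, 1.99 and 2.83 CPM in vehicle pools 1 to 4. Here TCDD pool 1 lay among the vehicle pools (log2 fold change 1.88 ± 0.230 SE, FDR-adjusted P = 4.06e-05; 1.61 over 8 pools, FDR-adjusted P = 0.0167). Its near copy *Ugt1a6b* was at 2.77, 2.18 and 2.73 CPM in TCDD pools 2, 3 and 4 and 2.08 CPM in TCDD pool 1, against 1.19, 1.01, 1.30 and 1.27 CPM in vehicle pools 1 to 4. For this gene TCDD pool 1 was close to the other TCDD pools (log2 fold change 1.102 ± 0.236 SE, FDR-adjusted P = 0.00333; 1.04 over 8 pools, FDR-adjusted P = 0.00788). Of the 50-base words of *Ugt1a6b* transcripts, 79.8% occur in other genes, against 58.2% for *Ugt1a1*, and pairs that lie there alone could not be placed.

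The counts of *Ugt1a7c* and *Ugt1a6a* carry a further limit, of another kind, that the others do not. In the annotation, *Ugt1a7c* has 998 bases and *Ugt1a6a* 1920 bases of exon at or after the shared exons that no other gene of the locus has, so that pairs from the ends of other *Ugt1a* transcripts could be counted there. Of the 954 bases of the first exon of *Ugt1a6a*, 95 belong to that gene alone, since an annotated *Ugt1a7c* transcript covers the rest. How much of their rise came from such pairs was not tested. The ratio of *Ugt1a7c* to *Ugt1a1* was 0.106, 0.181 and 0.172 in TCDD pools 2, 3 and 4 and 0.1203 in TCDD pool 1, against 0.0319 to 0.0751 in vehicle pools. The ratio of *Ugt1a6a* to *Ugt1a1* was 0.0546 to 0.122 in TCDD pools 2 to 4 and 0.0735 in TCDD pool 1, against 0.135 to 0.191 in vehicle pools. Neither ratio overlapped between the groups, and they moved in opposite directions. With the 9 genes summed before the fit, the locus stood at 123, 97.4 and 121 CPM in TCDD pools 2, 3 and 4 and 41.9 CPM in TCDD pool 1, against 12.2, 16.81, 17.2 and 26.6 CPM in vehicle pools 1 to 4. The sum rose with a log2 fold change of 2.64 ± 0.228 (SE, FDR-adjusted P = 1.74e-04), and of 2.40 over 8 pools (FDR-adjusted P = 0.00596).

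Of the 3 other *Ugt1a* genes with counts, which were too low to test, *Ugt1a10* was at 0.161 to 0.303 CPM in TCDD pools 2 to 4, 0.0886 CPM in TCDD pool 1, within the vehicle range, and 0 to 0.145 CPM in vehicle pools. *Ugt1a2* (0.114 to 0.401 CPM in TCDD pools 2 to 4, 0.0443 in TCDD pool 1, 0 to 0.1398 in vehicle pools) and *Ugt1a5* (0.0758 to 0.223 CPM in TCDD pools 2 to 4, 0.177 in TCDD pool 1, 0 to 0.254 in vehicle pools) overlapped between the groups. *Ugt1a8* and *Ugt1a9* had no count in any pool. Outside the locus, 4 of the 12 *Ugt2* and *Ugt3* genes had any count, and *Ugt2b34*, of the family that conjugates steroids and bile acids, could be tested. It was at 3.22, 1.47 and 2.50 CPM in TCDD pools 2, 3 and 4 and 0.576 CPM in TCDD pool 1, against 0.524, 0.756, 0.421 and 1.12 CPM in vehicle pools 1 to 4. The rise held in the 7 pools (log2 fold change 1.75 ± 0.364 SE, FDR-adjusted P = 0.00227) but not over 8 pools (1.46, FDR-adjusted P = 0.0701), where pool 1 lay among the vehicle pools.

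**Figure D2:**
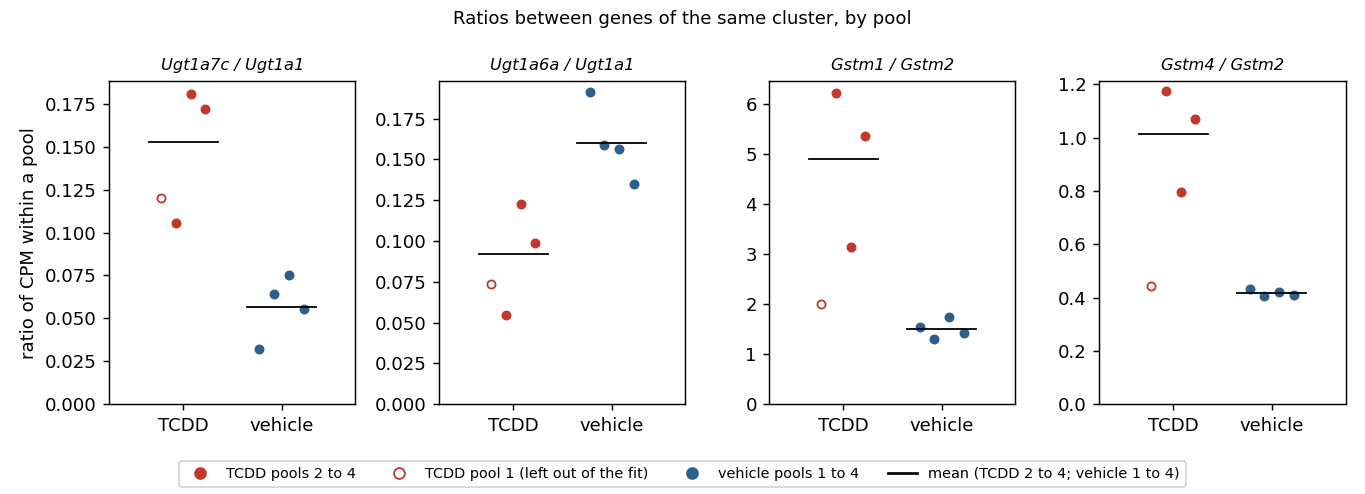
Ratio of the CPM of *Ugt1a7c* and *Ugt1a6a* to *Ugt1a1*, and of *Gstm1* and *Gstm4* to *Gstm2*, within each pool, with TCDD left of vehicle and lines at the means. TCDD pools 2 to 4 do not overlap the vehicle pools in any of the 4 panels, and they are lower only for *Ugt1a6a* over *Ugt1a1* (0.0546 to 0.122 in TCDD pools 2 to 4, 0.135 to 0.191 in vehicle pools).

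All 3 microsomal GST genes rose, by very different amounts, but *Mgst2* could be tested only through its TCDD pools. *Mgst2*, whose enzyme can also make leukotriene C4, was low with vehicle. It was at 5.35, 5.39 and 7.99 CPM in TCDD pools 2, 3 and 4 and 1.46 CPM in TCDD pool 1, against 0.769, 0.504, 0.688 and 1.49 CPM in vehicle pools 1 to 4. Of the TCDD pools, only pool 1 lay within the vehicle range (log2 fold change 2.85 ± 0.315 SE, FDR-adjusted P = 1.16e-05; 2.55 over 8 pools, FDR-adjusted P = 0.00878). *Mgst3*, a membrane enzyme that reduces lipid hydroperoxides, was abundant in both groups, at 201, 178 and 184 CPM in TCDD pools 2, 3 and 4 and 169.8 CPM in TCDD pool 1, against 94.3, 114, 122 and 108 CPM in vehicle pools 1 to 4. All 4 TCDD pools lay above the vehicle pools, and the change was close in both sets (log2 fold change 0.77 ± 0.0885 SE, FDR-adjusted P = 2.57e-05; 0.74 over 8 pools, FDR-adjusted P = 3.14e-04). *Mgst1*, the main microsomal GST of liver, was at 174, 172 and 181 CPM in TCDD pools 2, 3 and 4 and 181 CPM in TCDD pool 1, against 154, 141, 152 and 131 CPM in vehicle pools 1 to 4. Its small rise (log2 fold change 0.28 ± 0.0756 SE, FDR-adjusted P = 0.0152) did not depend on leaving out TCDD pool 1 (0.29 over 8 pools, FDR-adjusted P = 0.0151), but it was lost without TCDD pool 4 (0.25, FDR-adjusted P = 0.0684).

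The alpha and mu classes held the 5 *Gst* genes that rose. Of the alpha class, *Gsta4* (ENSMUSG00000032348, chromosome 9, 78182774 to 78209349, plus strand), whose enzyme clears the lipid aldehyde 4-hydroxynonenal, had the highest mean CPM of the 67 genes over all 8 pools, although in vehicle pools alone its mean (215 ± 15.6 CPM) and that of *Gsto1* (216 ± 69.4 CPM) did not differ beyond their spread. It was at 452, 429 and 475 CPM in TCDD pools 2, 3 and 4 and 279.7 CPM in TCDD pool 1, against 207, 203, 211 and 238 CPM in vehicle pools 1 to 4. It had the smallest FDR-adjusted P of the 27 (log2 fold change 1.07 ± 0.0741 SE, FDR-adjusted P = 3.57e-07; 0.93 over 8 pools, FDR-adjusted P = 0.00301), and no TCDD pool overlapped the vehicle pools. *Gsta2*, a form that conjugates a broad range of substrates, was at 11.5, 10.7 and 13.0 CPM in TCDD pools 2, 3 and 4 and 8.10 CPM in TCDD pool 1, against 6.36, 7.95, 9.90 and 6.38 CPM in vehicle pools 1 to 4. This smaller rise (log2 fold change 0.62 ± 0.164 SE, FDR-adjusted P = 0.0132) was lost over 8 pools (0.51, FDR-adjusted P = 0.0884) and without TCDD pool 4 (0.53, FDR-adjusted P = 0.0807), and 49.8% of the 50-base words of its transcripts occur in other genes, so that pairs there could not be placed. *Gsta3*, the remaining alpha gene tested, was not called (log2 fold change −0.28 ± 0.139 SE, FDR-adjusted P = 0.173).

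The mu genes sit side by side on chromosome 3 and did not move together. From *Gstm5* at 107895821 to *Gstm4* ending at 108044894 the order is *Gstm5*, *Gstm7*, *Gstm6*, *Gstm3*, *Gstm2*, *Gstm1* and *Gstm4*. The last pair, *Gstm1* and *Gstm4*, and *Gstm6* rose, *Gstm5* fell, *Gstm2* and *Gstm7* did not pass the test, and *Gstm3* was too low to test (0.0758 to 0.281 CPM in TCDD pools 2 to 4, 0.0886 in TCDD pool 1 and 0 to 0.0360 in vehicle pools). *Gstm1*, the most abundant of them, was at 333, 184 and 274 CPM in TCDD pools 2, 3 and 4 and 130.1 CPM in TCDD pool 1, against 92.3, 71.3, 97.4 and 74.6 CPM in vehicle pools 1 to 4. The TCDD pools spread widely but stayed above every vehicle pool (log2 fold change 1.65 ± 0.209 SE, FDR-adjusted P = 0.00120; 1.46 over 8 pools, FDR-adjusted P = 0.0135). *Gstm4* was at 62.8, 46.4 and 54.6 CPM in TCDD pools 2, 3 and 4 and 28.6 CPM in TCDD pool 1, against 26.1, 22.3, 23.4 and 21.4 CPM in vehicle pools 1 to 4 (log2 fold change 1.23 ± 0.106 SE, FDR-adjusted P = 2.59e-06; 1.05 over 8 pools, FDR-adjusted P = 0.0110). *Gstm6*, the lowest gene called, was at 1.17, 0.891 and 1.29 CPM in TCDD pools 2, 3 and 4 and 1.06 CPM in TCDD pool 1, against 0.454, 0.252, 0.268 and 0.435 CPM in vehicle pools 1 to 4. All 4 TCDD pools were higher (log2 fold change 1.64 ± 0.369 SE, FDR-adjusted P = 0.00369; 1.62 over 8 pools, FDR-adjusted P = 0.00540).

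Next to *Gstm1*, *Gstm2* stood at 53.5, 58.4 and 51.1 CPM in TCDD pools 2, 3 and 4 and 64.6 CPM in TCDD pool 1, against 60.1, 54.9, 55.6 and 52.1 CPM in vehicle pools 1 to 4 (log2 fold change −0.04 ± 0.0793 SE, FDR-adjusted P = 0.773). The ratio of *Gstm1* to *Gstm2* was therefore 3.15 to 6.22 in TCDD pools 2 to 4 and 2.01 in TCDD pool 1, against 1.30 to 1.75 in vehicle pools. That of *Gstm4* to *Gstm2* was 0.795 to 1.17 in TCDD pools 2 to 4 and 0.442 in TCDD pool 1, against 0.406 to 0.434 in vehicle pools. *Gstm1* shares 18.9% and *Gstm2* 5.65% of its 50-base words with other genes. *Gstm5*, at the far end of the cluster, was at 20.1, 21.7 and 16.6 CPM in TCDD pools 2, 3 and 4 and 26.1 CPM in TCDD pool 1, against 27.5, 24.3, 26.4 and 27.1 CPM in vehicle pools 1 to 4. Its fall (log2 fold change −0.44 ± 0.104 SE, FDR-adjusted P = 0.00718) was lost over 8 pools (−0.32, FDR-adjusted P = 0.108), where TCDD pool 1 lay among the vehicle pools.

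*Gstt1*, a theta-class gene whose enzyme acts on small halogenated compounds, had the larger of the falls. It was at 1.41, 1.47 and 1.52 CPM in TCDD pools 2, 3 and 4, against 6.01, 3.35, 5.35 and 3.44 CPM in vehicle pools 1 to 4, while TCDD pool 1 stood at 4.34 CPM, within the vehicle range. The log2 fold change was −1.63 ± 0.277 (SE, FDR-adjusted P = 5.70e-04) over 7 pools and −1.07 (FDR-adjusted P = 0.0876) over 8 pools, so the call was lost when TCDD pool 1 was kept, except where the replicate number was a block as well (−1.12, FDR-adjusted P = 0.0107). Summed mesenchyme markers likewise were lower in TCDD pools 2 to 4 (143 to 162 CPM) than in vehicle pools (227 to 280 CPM), with TCDD pool 1 within the vehicle range (255 CPM), and their part in the fall of *Gstt1* was not tested. Its neighbours on chromosome 10 did not pass the test. *Gstt3*, far more abundant than *Gstt1*, was at 199, 197 and 185 CPM in TCDD pools 2, 3 and 4 and 217 CPM in TCDD pool 1, against 207, 202, 201 and 182 CPM in vehicle pools 1 to 4 (log2 fold change −0.03 ± 0.0718 SE, FDR-adjusted P = 0.8002). *Gstt2* had a log2 fold change of −0.11 ± 0.103 (SE, FDR-adjusted P = 0.474).

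Of the other *Gst* genes none passed the test. *Gsto1*, an omega-class enzyme that also reduces dehydroascorbate and methylated arsenic, had the smallest FDR-adjusted P of the 12 genes that did not pass. It was at 341, 382 and 361 CPM in TCDD pools 2, 3 and 4 and 262 CPM in TCDD pool 1, against 123, 280.0, 204 and 256 CPM in vehicle pools 1 to 4. The vehicle pools spread widely, with pool 1 the lowest, and the log2 fold change of 0.74 had an SE of 0.273 (FDR-adjusted P = 0.109). Without vehicle pool 1 the gene was called higher (0.54, FDR-adjusted P = 0.00247), as it was with DESeq2 (0.74, FDR-adjusted P = 0.0403). *Gstp1*, the pi-class form common in fetal and epithelial tissue, was at 59.7, 64.5 and 61.0 CPM in TCDD pools 2, 3 and 4 and 66.2 CPM in TCDD pool 1, against 57.3, 53.8, 56.6 and 52.2 CPM in vehicle pools 1 to 4. Its TCDD pools lay above its vehicle pools, yet the difference was small (log2 fold change 0.16 ± 0.0725 SE, FDR-adjusted P = 0.124), and *Gstp1* shares 33.7% of its 50-base words with other genes, its neighbour *Gstp2* among them. *Gstz1*, of tyrosine breakdown, was at 48.8, 47.5 and 46.9 CPM in TCDD pools 2, 3 and 4 and 45.9 CPM in TCDD pool 1, against 45.9, 44.0, 44.7 and 47.5 CPM in vehicle pools 1 to 4 (log2 fold change 0.07 ± 0.0714 SE, FDR-adjusted P = 0.561). The remaining tested ones, *Gstp2*, *Gstm7* and *Gstk1*, had log2 fold changes of 0.71 (SE 0.386), −0.40 (SE 0.216) and −0.23 (SE 0.137). *Gsta1*, too low to test here, was at 0.322 to 0.936 CPM in TCDD pools 2 to 4, 0.177 CPM in TCDD pool 1, within the vehicle range, and 0.0725 to 0.210 CPM in vehicle pools, and shares 90.5% of its 50-base words with other genes.

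**Figure D3:**
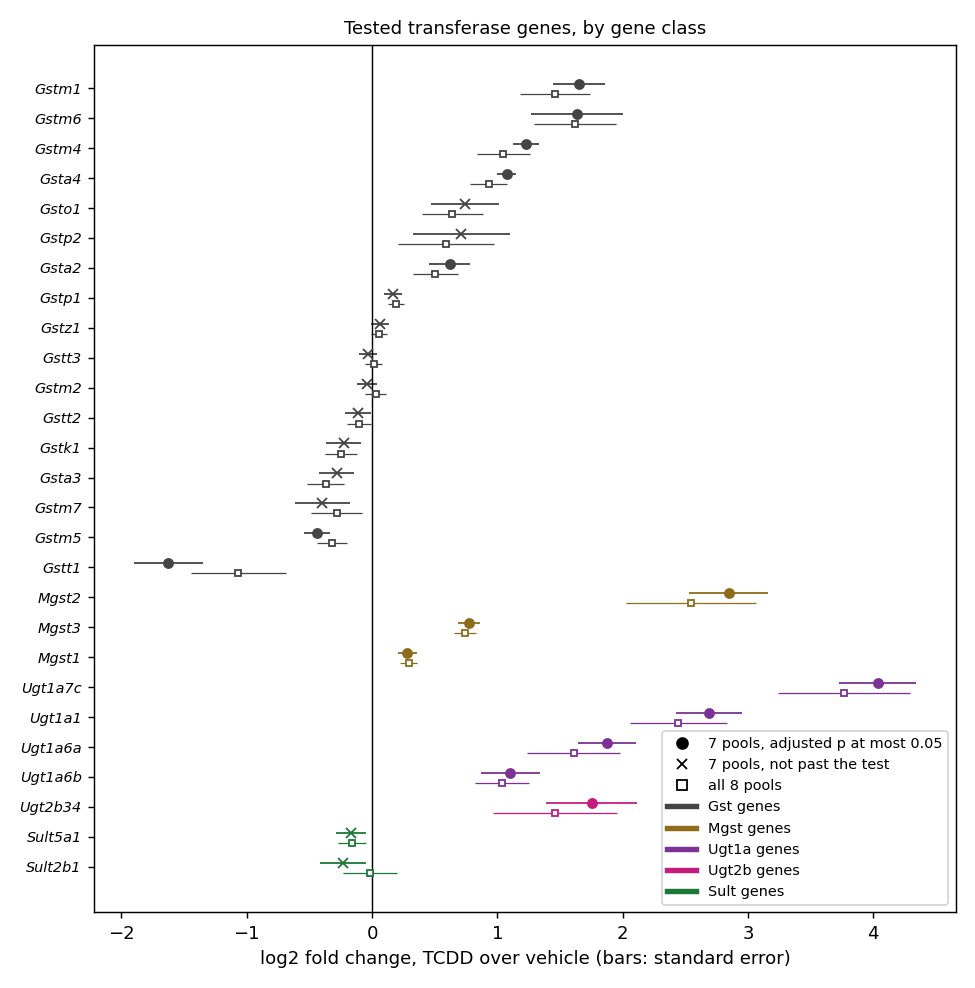
Log2 fold change of TCDD over vehicle with its standard error for the 27 tested transferase genes, grouped by class and ordered within a class. Filled circles (7 pools, past the test) lie right of 0 for all 3 *Mgst*, all 4 *Ugt1a* and the *Ugt2b* gene, *Gstt1* (−1.63) and *Gstm5* (−0.44) lie left of 0, and open squares show the same genes over all 8 pools. *Mgst2*, *Gstm6* and the *Ugt2b* gene reached the filter through the TCDD pools alone.

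The sulfotransferases were low or absent and no call was made among them. Of 21 *Sult* genes, 9 had any count and 2 could be tested by edgeR, of which 0 passed the test, 0 had an unadjusted p under 0.05, and 0 of 4 tested by DESeq2 passed. Of all tested genes, 11.9% were called higher and 11.2% lower by edgeR, and 2 genes are too few to compare with these shares. *Sult5a1* was at 16.6, 20.4 and 16.9 CPM in TCDD pools 2, 3 and 4 and 18.2 CPM in TCDD pool 1, against 20.9, 18.4, 17.8 and 23.4 CPM in vehicle pools 1 to 4 (log2 fold change −0.17 ± 0.1201 SE, FDR-adjusted P = 0.360). *Sult2b1*, whose enzyme sulfates cholesterol in stratified epithelia, was at 6.47, 8.38 and 7.12 CPM in TCDD pools 2, 3 and 4 and 12.0 CPM in TCDD pool 1, against 7.20, 11.1, 9.25 and 6.82 CPM in vehicle pools 1 to 4 (log2 fold change −0.23 ± 0.184 SE, FDR-adjusted P = 0.406). Both overlapped between the groups. *Sult1a1*, the phenol sulfotransferase, was below 1 CPM in all pools but vehicle pool 2 (1.40 CPM), and *Sult1e1*, the estrogen sulfotransferase, had 0 counts in the TCDD pools and 1 count each in 2 vehicle pools.

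Ranked by level per kilobase of exon that belongs to a single gene, the order of the genes differed between the groups. In vehicle pools *Gsta4* led with 169.5 ± 12.3 CPM per kb (SD, n = 4), followed by *Gsto1* (107 ± 34.3), *Mgst3* (99.99 ± 10.8), *Mgst1* (71.9 ± 5.42), *Gstt3* (59.6 ± 3.37) and *Gstm1* (57.0 ± 8.76). *Gsto1* did not differ from *Mgst3* or *Mgst1* beyond the spread of its pools, nor did *Gstt3* from *Gstm1*. In TCDD pools 2 to 4 *Gsta4* again led with 357 ± 18.0 CPM per kb (SD, n = 3), ahead of *Gstm1* (179 ± 50.9), *Gsto1* (179 ± 10.3) and *Mgst3* (171 ± 11.0), which did not differ beyond their spread, and *Ugt1a1* (97.7 ± 17.0). *Ugt1a1* thus held rank 5 in TCDD pools 2 to 4 and rank 10 in vehicle pools, where it was at 15.2 ± 5.58 CPM per kb. For *Ugt1a* genes the length counts the gene's own exons alone, and pairs that reach from them into the shared exons add to the value.

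**Figure D4:**
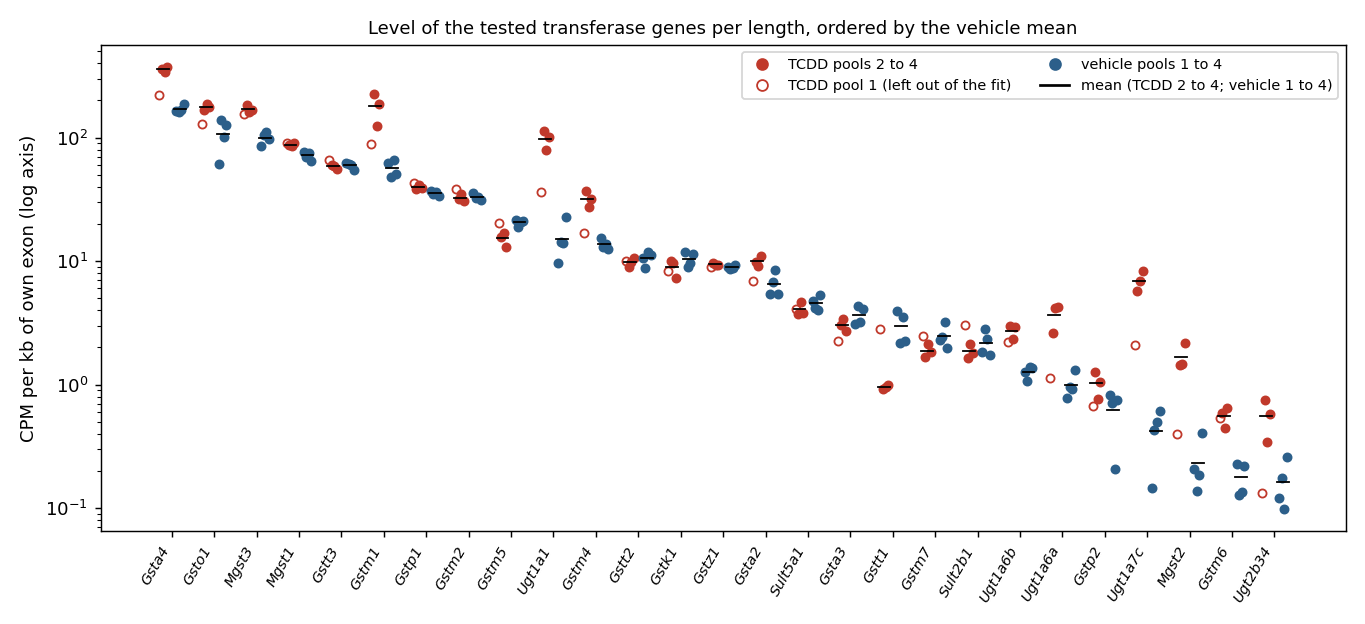
CPM per kilobase of own exon (log axis) of the 27 tested genes, ordered by the vehicle mean, a point per pool with TCDD left of vehicle and lines at the means. *Gsta4* is highest in both groups (357 CPM per kb in TCDD pools 2 to 4, 169.5 in vehicle pools), and *Ugt1a1*, *Ugt1a7c* and *Mgst2* stand out by the gap between TCDD and vehicle points.

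Promoters of 300 bases (250 before and 50 after the start, RefSeq, GRCm38.p6) were found for 59 of the 67 genes, among them 11 of the 13 that rose. *Mgst3* and *Ugt1a7c* are printed because *Mgst3* rose by a like amount with and without TCDD pool 1, *Ugt1a7c* had the largest fold change, and the AHR core is in the *Mgst3* window and not in the other. Capitals mark GCGTG on either strand.
Mgst3: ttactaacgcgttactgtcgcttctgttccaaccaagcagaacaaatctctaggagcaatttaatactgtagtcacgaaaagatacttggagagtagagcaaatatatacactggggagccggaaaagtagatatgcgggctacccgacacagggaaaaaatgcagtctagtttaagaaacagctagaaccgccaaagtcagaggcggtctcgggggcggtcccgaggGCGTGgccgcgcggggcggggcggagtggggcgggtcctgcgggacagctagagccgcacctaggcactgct
Ugt1a7c: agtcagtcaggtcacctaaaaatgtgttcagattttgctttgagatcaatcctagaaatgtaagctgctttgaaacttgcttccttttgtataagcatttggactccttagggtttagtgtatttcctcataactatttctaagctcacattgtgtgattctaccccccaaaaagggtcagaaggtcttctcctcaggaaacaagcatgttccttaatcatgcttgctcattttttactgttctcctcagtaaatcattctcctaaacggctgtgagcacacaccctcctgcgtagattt
The *Mgst3* window lies at chr1:167393792-167394091 on the minus strand, with the core at −22 to −18 from the start, and the *Ugt1a7c* window at chr1:88094751-88095050 on the plus strand, without the core. GCGTG, on either strand and in any promoter entry of the gene, was present for 3 of the 11 genes that rose (*Mgst3*, *Gstm1* and *Gsta2*) and for 2 of 11 that did not pass the test, against 32.4% of all 32851 promoters. This share and those below are per promoter entry, while the counts are per gene, and some genes have several entries. The longer form TNGCGTG, which contains the core, was present for 1 of the 11 that rose, *Gsta2*, against 5.07% of all promoters. TGACNNNGC, the core of the NRF2 motif, was present for 1 of the 11 that rose, *Mgst1*, and for 2 of 11 that did not pass the test, against 12.4% of all promoters. Of the 2 genes that fell, *Gstm5* holds GCGTG and, overlapping it, TGACNNNGC, and *Gstt1* holds none of these motifs. A match in such a window is a description of its letters and not a binding site.

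Genes of cofactor supply were counted by list, together with some that use or break down cofactors or conjugates, so a count does not measure supply. For UDP-glucuronate, 4 of 9 tested genes rose (3 over 8 pools) and the other 5 did not pass, beside 11.9% of all tested genes higher and 11.2% lower (median log2 fold change 0.18). *Ugdh*, the dehydrogenase that makes UDP-glucuronate, was at 102 ± 16.6 CPM in TCDD pools 2 to 4 and 68.4 ± 1.74 CPM in vehicle pools (SD, n = 3 and 4; log2 fold change 0.57 ± 0.0965 SE, FDR-adjusted P = 6.71e-04; FDR-adjusted P = 0.0112 over 8 pools). *Uxs1*, which turns UDP-glucuronate into UDP-xylose, rose as well (log2 fold change 0.60 ± 0.0781 SE, FDR-adjusted P = 7.67e-05, and 0.00116 over 8 pools). *Pgm1* and *Pgm2*, phosphoglucomutase genes, had log2 fold changes of 0.59 (FDR-adjusted P = 8.23e-04) and 0.29 (FDR-adjusted P = 0.0215), and over 8 pools the call of *Pgm1* held (FDR-adjusted P = 0.00959) and that of *Pgm2* was lost (FDR-adjusted P = 0.319).

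For glutathione synthesis and recycling, 2 of 13 tested genes rose, 1 fell and the other 10 did not pass, shares near the 11.9% and 11.2% of all tested genes, and over 8 pools 1 rose and 1 fell (median log2 fold change 0.09). *Gclc*, the catalytic subunit of the rate-limiting ligase, was at 78.4 ± 0.252 CPM in TCDD pools 2 to 4 and 62.0 ± 5.19 CPM in vehicle pools (log2 fold change 0.34 ± 0.0778 SE, FDR-adjusted P = 0.00598; FDR-adjusted P = 0.0801 over 8 pools). *Ggt6* rose (log2 fold change 0.64, FDR-adjusted P = 0.00768) and *Ggt5*, a gamma-glutamyl enzyme that cleaves leukotriene C4, fell (−0.83, FDR-adjusted P = 7.84e-04), and both calls held over 8 pools (FDR-adjusted P = 0.00845 and 0.00980).

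For the sulfation list (PAPS supply and desulfation), 2 of 10 tested genes rose, 2 fell and the other 6 did not pass. Of all tested genes, 11.9% were higher and 11.2% lower, and over 8 pools 2 of the list rose and 2 fell (median log2 fold change 0.02). Both PAPS synthases were lower: *Papss1* was at 251 ± 11.3 CPM in TCDD pools 2 to 4 and 329 ± 12.6 CPM in vehicle pools (log2 fold change −0.39 ± 0.0680 SE, FDR-adjusted P = 8.22e-04), and *Papss2* at 1.60 ± 0.462 CPM in TCDD pools 2 to 4 and 2.95 ± 0.257 CPM in vehicle pools (−0.88 ± 0.242 SE, FDR-adjusted P = 0.0159). Both falls held over 8 pools (FDR-adjusted P = 0.0110 and 0.0189). *Slc26a2*, a sulfate transporter, and *Sumf1*, which activates sulfatases, rose (log2 fold changes 0.77 and 0.33, FDR-adjusted P = 2.31e-04 and 0.00670, and 0.0196 and 0.0362 over 8 pools).

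Of 7 tested transporters that export conjugates, 3 rose, 1 fell and the other 3 did not pass, beside the same 11.9% and 11.2% (median log2 fold change 0.22). *Abcc5*, *Abcc4* and *Abcc3*, which encode multidrug resistance proteins, had log2 fold changes of 0.50, 0.42 and 0.83 (FDR-adjusted P = 0.00165, 0.00788 and 0.0349), and *Abcg2*, an exporter of sulfate conjugates among others, of −0.64 (FDR-adjusted P = 0.0151). None of these 4 calls held over 8 pools (FDR-adjusted P = 0.221, 0.135, 0.224 and 0.0798). *Abcc3* was at 189, 122 and 160.1 CPM in TCDD pools 2, 3 and 4 and 73.2 CPM in TCDD pool 1, against 59.2, 102, 89.7 and 102 CPM in vehicle pools 1 to 4.

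Genes of an AHR and an NRF2 list, where regulators stand beside known response genes, were counted in the same fit. Of 7 tested genes of the AHR list, 5 rose and 2 did not pass the test. Those 2 were *Ahr*, the gene of the receptor itself (log2 fold change −0.10), and *Arnt*, the gene of its partner (0.03). Of 16 tested genes of the NRF2 list, 7 rose and 9, the regulator *Keap1* among them, did not. Over 8 pools 5 of the AHR list and 5 of the NRF2 list were higher. Of all tested genes, 11.9% were called higher and 11.2% lower over 7 pools, and 7.41% higher over 8 pools. TCDD pool 1 lay above every vehicle pool for 5 of the 5 AHR list genes that rose and for 5 of the 7 on the NRF2 list, and below each of TCDD pools 2 to 4 for 4 of the 5 and 7 of the 7. *Nqo1*, a quinone reductase on both lists, was at 19.9, 14.9 and 19.2 CPM in TCDD pools 2, 3 and 4 and 9.21 CPM in TCDD pool 1, against 4.93, 3.38, 5.93 and 5.08 CPM in vehicle pools 1 to 4. Like *Ugt1a1*, *Ugt1a7c* and *Gstm1*, it had TCDD pool 1 between the other TCDD pools and the vehicle pools. The gap between TCDD pool 1 and the other TCDD pools differed from gene to gene. *Cyp1b1* was at 321 CPM in TCDD pool 1 and 333 to 352 in the other TCDD pools, *Cyp1a1*, another P450 gene, at 130 and 161 to 241, and *Nfe2l2*, the gene of NRF2 itself, at 197 and 201 to 244. Of the 13 transferase genes that rose, 11 were lower in TCDD pool 1 than in each of TCDD pools 2 to 4, a count without an all-gene share beside it. Summed urothelium markers had the same order (3362 to 4150 CPM in TCDD pools 2 to 4, 2112 in TCDD pool 1, 1409 to 1795 in vehicle pools), and their part in the rise of these genes was not tested.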

How the data were processed

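Gene counts of 16 libraries (4 pools per group on 2 lanes each) were analysed. By the methods, the authors trimmed the reads, aligned them with HISAT2 2.1.0 to GRCm38.p6 and counted read pairs per gene by htseq-count (HTSeq 0.12.4, reverse strand, exons, intersection-nonempty) to give the deposited counts; this drops pairs that align to several places or cannot be assigned to 1 gene. Lines that name no gene held 17.4% to 20.1% of pairs and were left out. The authors' deposited comparison tables (fold changes and p-values) were not used.

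Lanes were averaged as in the methods, and TCDD pool 1 was left out, taken to be the outlier sample that they removed without a number. With edgeR 4.0.16 in R 4.3.3, genes were filtered (filterByExpr, minimum count 10, minimum total 15), scaled by TMM and tested by the quasi-likelihood F-test (robust, legacy) and by TREAT at 1.5-fold, with Benjamini-Hochberg adjustment over all tested genes at 0.05. Standard errors are Wald errors with the same dispersions. Printed CPM share a TMM scale over all 8 pools. Tested on simulated data (7 pools, 14089 genes), the quasi-likelihood F-test found 70.8%, 90%, 98% and 100% of genes simulated at 1.5-, 2-, 4- and 8-fold, with 4.81% false calls, and TREAT found 0%, 52%, 98% and 98%. The 0% follows from its design, since 1.5-fold is the bound it tests against. The simulation changed 48 to 50 genes per fold and gave genes of like level the same dispersion, so the rates may be too high for the noisier genes here. P-values measure the spread between pools. Alternatives were all 8 pools, each pool left out, other scalings, no filter, lanes summed or alone, a replicate block and DESeq2 1.42.0.

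The genes, lists and tests were chosen with earlier results of these data known. Named were all genes past the test, the 10 with the highest mean CPM, every *Ugt1a* gene with counts and, of each cofactor, transporter or response list, at most 4 past the test with the smallest FDR-adjusted P; other genes were named after their values were seen. Gene coordinates, exon lengths and shared 50-base words come from the GENCODE M21 annotation of GRCm38, and promoters from RefSeq (GRCm38.p6). Of the sulfation list, *Bpnt2* was counted under its earlier symbol *Impad1*, and *Sts* was not analysed here.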

Additional observations from a re-analysis of the deposited data

Results flagged for a closer look

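*Gstt1* in TCDD pool 1 stood apart from the other pools of its group. It was at 4.34 CPM there, against 1.41 to 1.52 CPM in TCDD pools 2 to 4, a gap of 0.963 of the range of the group, above the critical value of Dixon's test for 4 samples. Of 60 groups of 4 pools checked in this way (each tested gene and each *Ugt1a* gene with counts, in each group), this was the only 1 marked, where chance marks about 1 in 20. TCDD pool 1 is the pool taken here to be the one that the study removed.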

How the results depend on the processing

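Over all 8 pools, fewer genes passed: 2 transferase genes instead of 9 rose by TREAT, 0 instead of 1 fell by TREAT, 0 instead of 2 fell by the quasi-likelihood test, and 6 instead of 11 cofactor and transporter genes rose. With all 8 pools and a replicate block these counts were 4, 0, 1 and 6. Of all tested genes, 1041 instead of 1688 rose over 8 pools and 843 instead of 1588 fell. By TREAT 130 instead of 368 of all genes rose and 63 instead of 205 fell. With 8 pools and the block, 1109 of all 14051 tested genes were called higher and 979 lower. The cause of the smaller counts was not tested. *Gstm2*, near 0, changed sign over all 8 pools (0.030), with the replicate block there (0.027) and in lane 3 alone (0.014), as did *Gstt3* over all 8 pools (0.013) and with the block (0.013). Leaving out each pool in turn gave 11 to 14 transferase genes higher and 2 lower, and 6 to 9 higher and 1 lower by TREAT. Of all 14100 to 14520 genes tested in those fits, 1189 to 1633 were called higher and 1061 to 1639 lower. All-gene counts by TREAT are not given for them. In the same fits 9 to 11 cofactor and transporter genes were higher and 3 to 5 lower, and the log2 fold change of the summed *Ugt1a* genes was 2.48 to 2.88. That sum passed in all settings (2.35 to 2.88, largest FDR-adjusted P = 0.00596). *Gsta4*, *Ugt1a7c*, *Gstm4*, *Mgst2*, *Mgst3*, *Ugt1a6a*, *Ugt1a1*, *Ugt1a6b* and *Gstm6* passed in all 18 alternatives. *Gsta1*, too low for the filter, was called higher with no filter (1.97, FDR-adjusted P = 0.0137) and by DESeq2 (2.09, FDR-adjusted P = 0.0355). Whether the replicate numbers pair the pools is not known. In the 7 pools of the fit, deviations of same-numbered pools correlated at −0.14, −0.07 and −0.06 for pools 2, 3 and 4. Over all 8 pools the correlations were 0.37, −0.06, −0.15 and 0.13 for pools 1 to 4, with 0.37 the highest of all pairs of a TCDD and a vehicle pool. With the number as a block, 13 genes were higher and 2 lower, beside 1219 higher and 1205 lower of all 14233 tested genes. There *Gsta2* lost its call (FDR-adjusted P = 0.0522), *Gsto1* gained one (0.56, FDR-adjusted P = 0.00289), and all 8 pools with the block left *Gstm1* at an FDR-adjusted P of 0.0741. Other scalings changed no call of the 27 genes. Genes below about 1 CPM, *Gstm6* and most *Sult* genes among them, rest on few counts.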
